A study of Mus musculus with 6 samples.

Results

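The 38 genes described here encode the cyclins and kinases that take a cell into mitosis and the motors, scaffolds and checkpoint proteins that build the spindle, separate the chromosomes and cut the cell apart. They were taken by name from a list of mitosis and spindle genes. The rule uses no measured value, but the list was drawn up with earlier results of these data known. Of the 38, 37 had a probe set listed with that gene as its single symbol, in all 81 of 45037 probe sets, and 74 of the 81 were bright enough to test. Ccnb1, which encodes cyclin B1, had no such probe set and is not analysed here. The 7 probe sets that were too dim belong to Top2a, Cenpf, Kif23, Racgap1, Foxm1, Ttk and Aurka, each of which had another that was tested. Each gene is represented below by its tested probe set with the highest mean signal.

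The arrays held RNA from bone marrow cells of C57BL/6 mice grown in medium with serum and interleukin-7, the cytokine on which early B cell progenitors depend. There were 3 samples that lacked both Cry1 and Cry2, labelled DKO 1 to DKO 3, and 3 wild-type samples, labelled WT 1 to WT 3. Both genotypes had the same culture, and the labels name no other allele or agent, no age and no time of harvest. Cry1 and Cry2 encode the cryptochromes, repressors of the circadian clock, and the comparison asks which transcripts differ in cells without them. The labels do not say whether samples of a genotype came from separate animals or cultures, so every p-value measures the spread of these samples alone, part of which may be technical. Signals below are given in the order of arrays 1 to 3 of each genotype, DKO first.

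In a dividing cell most of these transcripts are made late in the cycle, from the end of DNA replication into mitosis, and are removed or silenced afterwards, so their level in a population follows the share of cells in those phases as well as the amount per cell. Many of their promoters carry a CHR, an element with the core TTTGAA near the transcription start, together with CCAAT boxes, and are held silent in resting cells by the DREAM complex and switched on by MYB-containing complexes and FOXM1. In bulk RNA, fewer cells of a kind and less RNA per cell cannot be told apart.

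WT 2 stood apart from the other 5 arrays. The ratio of 3' to 5' signal of its Actb control probe sets was 824 where the others had 1.47 to 2.05, that of Gapdh was 132 against 0.838 to 1.72, and the median of its signals was 115 where those of the others were 44.0 to 55.3. Over probe sets WT 2 correlated with the others at 0.752 to 0.780, and the other 5 correlated among themselves at 0.936 to 0.984, with DKO 3 and WT 3 the closest pair. Results are therefore given with all 6 arrays and without WT 2. For Cry1 the only probe set read 359, 399 and 545 on the DKO arrays and 1533, 1502 and 955 on the WT arrays, and the Cry2 probe set read 162, 178 and 133 against 145, 102 and 105. It was not analysed here whether these probe sets cover the deleted exons, and they therefore do not check the labels. Markers of pro-B and pre-B cells were present on every array, with 11 of 12 listed genes tested and none below a signal of 148.

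The promoters of 6 members are shown, 5 of them as examples that carry both elements that many of the set share, and that of Nek2 as an example without TTTGAA. Each is the 150 bases before the transcription start in RefSeq's annotation of GRCm38.p6, written 5' to 3' on the strand of the gene, with TTTGAA or its reverse complement TTCAAA and CCAAT or its reverse complement ATTGG in capitals.
Cdk1, chr10:69352913-69353062, minus strand: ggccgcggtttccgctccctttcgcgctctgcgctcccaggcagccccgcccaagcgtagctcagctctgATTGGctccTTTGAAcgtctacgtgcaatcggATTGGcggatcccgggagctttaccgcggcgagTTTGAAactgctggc
Top2a, chr11:99024190-99024339, minus strand: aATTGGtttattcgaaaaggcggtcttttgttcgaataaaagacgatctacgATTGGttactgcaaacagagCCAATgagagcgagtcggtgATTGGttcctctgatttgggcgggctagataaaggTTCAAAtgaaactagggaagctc
Cdc20, chr4:118437344-118437493, minus strand: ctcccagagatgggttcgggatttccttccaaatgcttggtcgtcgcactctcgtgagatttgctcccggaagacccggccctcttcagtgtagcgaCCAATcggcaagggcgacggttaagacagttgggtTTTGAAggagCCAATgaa
Ube2c, chr2:164769779-164769928, plus strand: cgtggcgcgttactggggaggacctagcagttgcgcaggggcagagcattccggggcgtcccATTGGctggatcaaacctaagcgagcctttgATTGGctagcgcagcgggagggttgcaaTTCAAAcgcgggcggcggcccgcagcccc
Kif11, chr19:37376232-37376381, plus strand: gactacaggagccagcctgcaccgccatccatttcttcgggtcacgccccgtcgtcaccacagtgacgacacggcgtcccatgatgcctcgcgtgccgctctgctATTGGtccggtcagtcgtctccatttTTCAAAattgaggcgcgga
Nek2, chr1:191821323-191821472, plus strand: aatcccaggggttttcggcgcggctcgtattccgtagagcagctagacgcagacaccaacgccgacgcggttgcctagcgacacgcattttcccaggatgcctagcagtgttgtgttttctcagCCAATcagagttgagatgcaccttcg

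In Cdk1 the TTTGAA nearest to the start begins at position -15, in Top2a at -23, in Cdc20 at -18, in Ube2c at -29 and in Kif11 at -19, counted from the transcription start. The window of Nek2, whose signal had the widest spread among the 37 representative probe sets over the 5 arrays without WT 2, holds CCAAT and no TTTGAA. Of the 38 members, 33 had an entry among the RefSeq promoters used, and Aurkb, Ccna2, Foxm1, Kif20a and Tpx2 had none. In windows from 250 bases before to 50 bases after the start, TTTGAA occurred on either strand in 27 of 36 member promoters (75%) and in 17.9% of all 32851 promoters of the table. Shares are over promoters, and the 32851 belong to 27025 genes. Bub3, Ect2 and Prc1 each had 2 overlapping windows with the same TTTGAA, and both windows were counted. CCAAT on either strand occurred in 77.8% against 37.4%, at least 2 CCAAT in 55.6% against 11.7%, and both motifs in 66.7% against 6.95%. TTTGAA within 50 bases of the start occurred in 66.7% of member promoters against 4.94%. The TTTGAA share was 72% for other mitotic kinesins and spindle genes and 47.1% for condensin, cohesin and separase genes. It was 36.4% for regulators of mitotic entry, 31.2% for other kinetochore and centromere genes and 16.7% for centriole genes. Cell cycle inhibitors and quiescence genes had 13.3%, and genes of the anaphase-promoting complex and mitotic exit had 12.5%, as did DNA replication genes. Matches of each motif were counted on their own and can share bases with the other, and a match describes the letters in these windows and no binding.

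With all 6 arrays no mitosis or spindle gene passed the test between genotypes, and the direction of most depended on WT 2. Of the 74 tested probe sets, 0 passed limma's adjusted threshold of 0.05, where 2 of 27022 passed over the whole table (0.0074%). At an unadjusted p under 0.05 limma counted 0 of the 74, against 3.12% over the table. Of 37 genes, 26 had higher and 11 had lower mean log2 signal in DKO, with a median difference of 0.29, and over all 12627 tested genes 29.8% were lower with a median of 0.30. The sign of these medians depended on the scaling. With centring over the tested probe sets, with no centring and with quantile normalization, the median over all genes was 0.011, -0.0080 and 0.011, and the members' median was -0.0024, -0.021 and -0.070 with 17, 16 and 14 of 37 genes higher. The median over all genes thus shifted by -0.29, -0.31 and -0.29 from the main scaling, and relative to it the members' median was -0.013 in the main scaling and -0.013, -0.013 and -0.081 in the others. Limma's adjusted p over the 37 genes ran from 0.822 to 0.987.

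Without WT 2, all 37 genes had lower mean signal in DKO, and none passed the test. The median difference was -0.41 on the log2 scale, from -1.28 for Nek2 to -0.011 for Foxm1, where 48.3% of all tested genes were lower and their median was 0.011. Limma called 0 of the 74 probe sets, with 7 called over the table (0.0259%), and its adjusted p over the 37 genes ran from 0.948 to 0.997. At an unadjusted p under 0.05 it counted 2 of 74, secondary probe sets of Cenpa (-1.06) and Cenpe (-0.99), against 4.35% over the table. Of the 74 probe sets 69 were lower, and the 5 on the other side were secondary probe sets of Kif2c (0.04), Bub1b (0.12), Bub3 (0.21), Nek2 (0.28) and Nusap1 (0.30). With quantile normalization 37 of 37 genes were lower (median -0.39), and with no centring 36 of 37 (median -0.39), with Foxm1 at 0.0066.

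**Figure D1:**
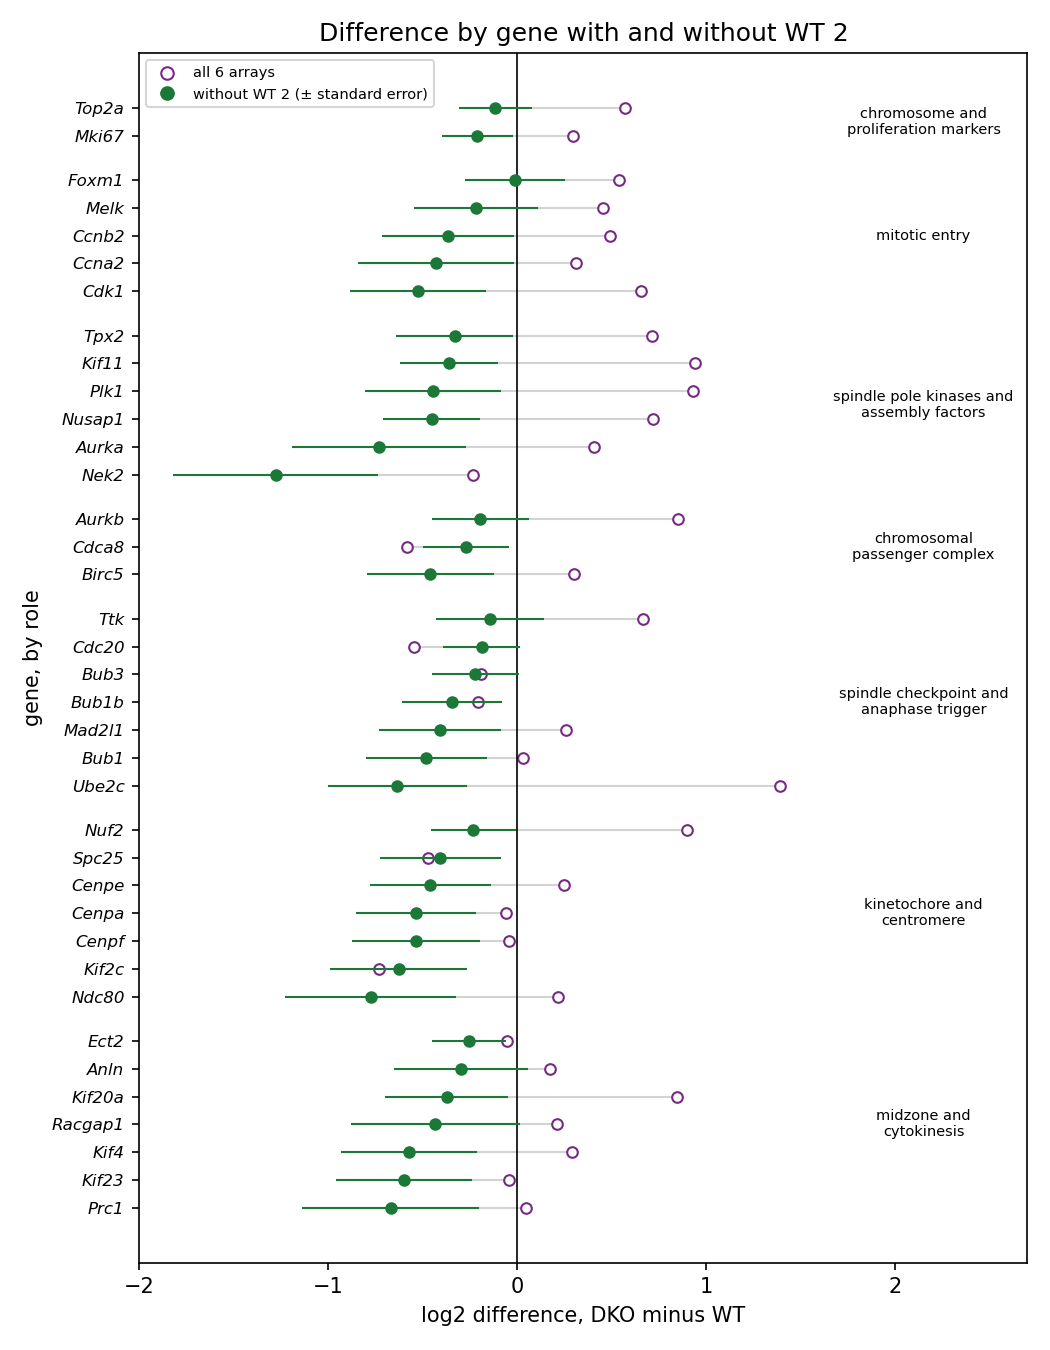
Log2 difference, DKO minus WT, of 37 genes by role, with all 6 arrays (open) and without WT 2 (filled, bars show the standard error from limma). Without WT 2 every filled point lies at or left of 0, from -1.28 for Nek2 to -0.011 for Foxm1, and 26 open points lie right of 0.

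The lower mean came from DKO 1 and DKO 2 and was not shared by DKO 3. Taking each gene against its own mean over the 5 arrays other than WT 2, the members' median was -0.31 on DKO 1, -0.56 on DKO 2 and 0.40 on DKO 3, with 0.11 on WT 1 and 0.41 on WT 3. The same medians over all tested genes were -0.042, -0.047, 0.13, -0.093 and 0.084. DKO 2 lay below both WT arrays in 37 of 37 genes and DKO 1 in 34, and DKO 3 did so in 1, Ect2. Over all genes these shares were 39.6%, 40.5% and 18.8%. DKO 3 lay between WT 1 and WT 3 in 20 genes and above both in 16, and over all 12627 tested genes in 4051 and 6202. The members' median of DKO 3 minus WT 3 was -0.020, from -0.33 to 0.20. Within the wild type, WT 1 lay below WT 3 in 36 of 37 genes, against 8686 of the 12627.

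**Figure D2:**
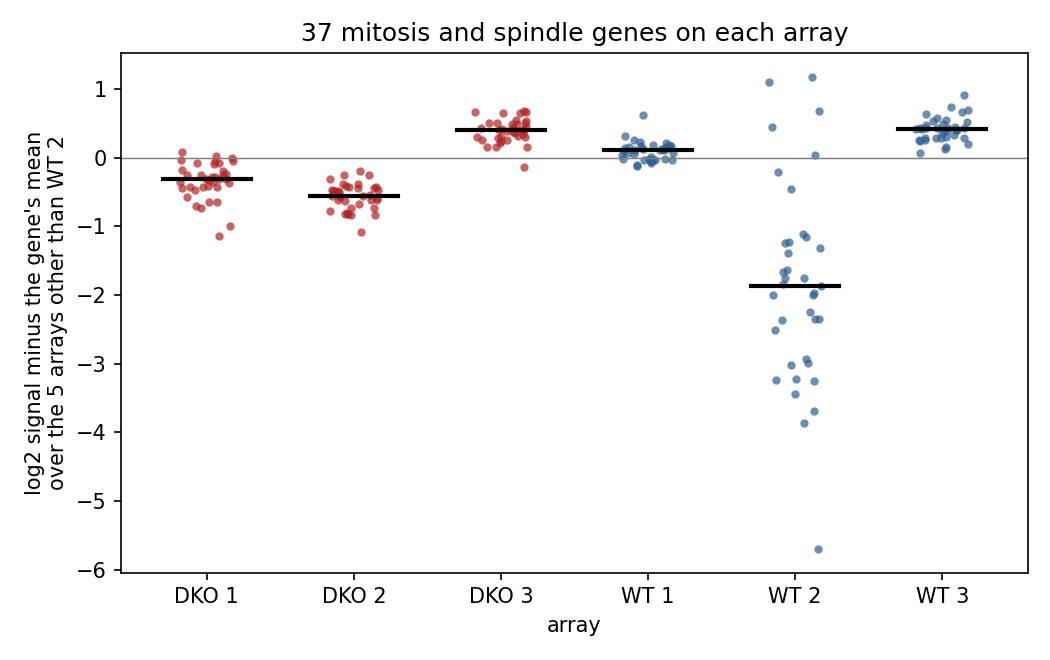
Centred log2 signal of each of 37 genes minus its mean over the 5 arrays other than WT 2, by array, with black lines at the medians (DKO in red, WT in blue). The medians of DKO 1 and DKO 2 are -0.31 and -0.56, those of DKO 3 and WT 3 are 0.40 and 0.41, and the WT 2 points have the widest spread.

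The groups overlapped for nearly all members. Without WT 2, DKO lay below WT with no overlap in 6 of 74 probe sets (8.11%), which was the share over the whole table (8.14%), and Ect2 was the single representative among them. With all 6 arrays the count was 3 of 74 (4.05%) against 3.29%, all secondary probe sets, of Cenpe (-0.86), Cenpf (-0.45) and Tpx2 (-0.51). Above WT with no overlap lay 0 of 74 probe sets and 0 of the 37 genes, where 1077 of all 12627 tested genes did. Ect2, needed for cytokinesis, read 3210, 2482 and 2309 on the DKO arrays and 3216, 4081 and 3017 on the WT arrays. Its DKO 1 signal lay above that of WT 3 as deposited and below it after centring.

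Leaving out a second array as well gave calls in 1 of 5 cases. Without WT 2 and DKO 3, 2 arrays against 2, limma called 13 of 74 member probe sets (17.6%), all lower, of 11 genes, where it called 1099 over the table (4.07%, and 1.75% on the lower side). These genes were Nek2, Ccna2, Ube2c, Aurka, Cenpa, Mad2l1, Birc5, Cdk1, Nusap1, Ndc80 and Prc1, with adjusted p from limma between 0.0027 and 0.0493, and the members' median was -0.71. Without WT 2 and 1 of DKO 1, DKO 2, WT 1 or WT 3, it called 0 of 74, and the median was -0.31, -0.19, -0.58 and -0.27. When limma gave each array a weight, 0.0623 for WT 2 and 0.535 for DKO 3, it called 4 of 74 probe sets of 3 genes, all lower, against 3.41% over the table. DKO 3 was not labelled as different from DKO 1 and DKO 2, so the 2 against 2 values describe those 4 arrays.

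The representative probe sets of the chromosome and proliferation markers varied little over the 5 arrays. Mki67, which coats mitotic chromosomes and marks cycling cells, read 12388, 9503 and 11926 on the DKO arrays and 13642, 8914 and 12019 on the WT arrays. WT 2 and DKO 2 were lowest and the other 4 arrays were close together. The difference was 0.29 (SE 0.46) with all 6 arrays and -0.21 (SE 0.19) without WT 2. Top2a, the topoisomerase that untangles sister DNA, read 15099, 14182 and 17764 against 16712, 7930 and 16685. DKO 3 read highest of all, and without WT 2 the groups differed by -0.11 (SE 0.19). From the lowest to the highest of the 5 arrays without WT 2, Top2a spanned 0.54 and Mki67 0.55 on the log2 scale, both 1.46-fold. A dimmer Top2a probe set read 479, 277 and 247 against 759, 1156 and 281. It spanned 1.40 over the 5 arrays, 2.63-fold, and differed by -0.53 (SE 0.42) without WT 2.

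The regulators of mitotic entry read about as high on DKO 3 as on WT 3, with a median of DKO 3 minus WT 3 of 0.099. Cdk1, the kinase that drives entry and whose promoter is shown above, read 3367, 3280 and 5994 on the DKO arrays and 5315, 975 and 6221 on the WT arrays. DKO 1 and DKO 2 were low, WT 2 lower still, and DKO 3 lay inside the range of WT 1 and WT 3. The difference was 0.65 (SE 0.98) with all 6 arrays and -0.52 (SE 0.36) without WT 2. Ccnb2, a B-type cyclin that activates Cdk1, read 4399, 4000 and 7306 against 5890, 2135 and 7025, a difference of 0.49 (SE 0.76) and, without WT 2, -0.37 (SE 0.35). The kinase gene Melk read 892, 787 and 1246 against 996, 538 and 1213, with differences of 0.45 (SE 0.66) and -0.22 (SE 0.33). DKO 3 was the highest of the 6 for both. Foxm1, the activator of this gene set, was dimmer, at 568, 437 and 560 against 528, 322 and 504, and DKO 1 read as high as DKO 3. Its difference was 0.54 (SE 0.55) with all 6 arrays and -0.011 (SE 0.26) without WT 2, the smallest of the 37. Ccna2, the cyclin of replication and early mitosis, differed by -0.43 (SE 0.41) without WT 2, and its secondary probe set by -0.65.

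Among spindle pole kinases and assembly factors Nek2 had the widest spread over the 5 arrays without WT 2. Nek2, a kinase that splits the paired centrosomes, read 1777, 1806 and 5305 on the DKO arrays and 5953, 1395 and 6433 on the WT arrays. Its signals formed a low set, DKO 1, DKO 2 and WT 2, and a high set, DKO 3, WT 1 and WT 3, so that genotypes overlapped fully. Over the 5 arrays without WT 2 it spanned 2.05 on the log2 scale, 4.13-fold. The difference was -0.24 (SE 0.96) with all 6 arrays and -1.28 (SE 0.54) without WT 2, with an unadjusted p of 0.0506 and an adjusted p of 0.948 in limma. The second brightest Nek2 probe set had the same low and high sets, at 752, 661 and 1996 against 2229, 631 and 2432, and differed by -1.23 without WT 2. A dim Nek2 probe set, at 17.5 to 41.9 on the arrays other than WT 2 and 134 on WT 2, differed by 0.28.

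Plk1, the polo-like kinase that matures centrosomes, read 2357, 1369 and 2720 against 2637, 303 and 2936. WT 2 was far below the others and DKO 2 was the next lowest. The difference was 0.93 (SE 1.12) with all 6 arrays and -0.45 (SE 0.36) without WT 2. Kif11, the kinesin that pushes spindle poles apart, read 3043, 2532 and 3715 against 3948, 500 and 3819, with differences of 0.94 (SE 1.05) and -0.36 (SE 0.26). Nusap1, which bundles spindle microtubules, read 7007, 6802 and 9738 against 10144, 1809 and 10815, with differences of 0.72 (SE 0.94) and -0.45 (SE 0.26). For both, DKO 3 on the deposited scale lay below WT 1 and WT 3. After centring, Kif11 was highest on DKO 3, and Nusap1 on DKO 3 lay between WT 1 and WT 3. Aurka, the kinase of the spindle pole, and Tpx2, its activator, differed by -0.73 (SE 0.46) and -0.33 (SE 0.31) without WT 2.

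**Figure D3:**
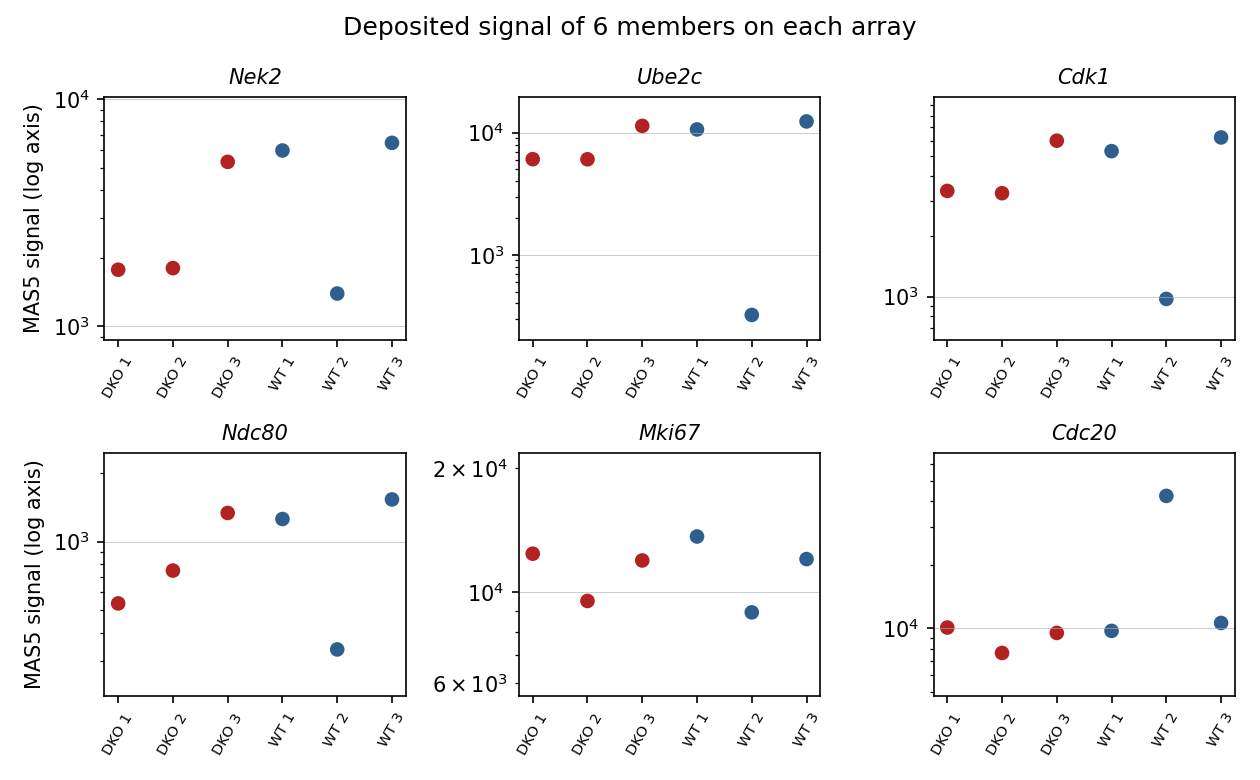
Deposited MAS5 signal of 6 members on each array, on a log axis that differs between panels (DKO in red, WT in blue). Nek2, Ube2c, Cdk1 and Ndc80 are lower on DKO 1, DKO 2 and WT 2 than on the other 3 arrays, Mki67 varies little, and Cdc20 is highest on WT 2.

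The chromosomal passenger complex, which corrects the attachment of chromosomes to the spindle, had 3 members measured. Aurkb, its kinase, read 3555, 2717 and 3896 on the DKO arrays and 3676, 842 and 3913 on the WT arrays. Apart from WT 2 only DKO 2 was clearly low, and the difference was 0.85 (SE 0.87) with all 6 arrays and -0.20 (SE 0.26) without WT 2. Birc5, which encodes survivin, read 5379, 4853 and 8840 against 7919, 3400 and 8774, with differences of 0.30 (SE 0.69) and -0.46 (SE 0.34). Cdca8, which encodes borealin, read 7815, 6552 and 8947 against 8999, 35156 and 9386. Its WT 2 signal was the highest by far, and the difference was -0.59 (SE 0.37) with all 6 arrays and -0.27 (SE 0.23) without WT 2.

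The spindle checkpoint holds anaphase until all chromosomes are attached, and Cdc20 and Ube2c carry out the degradation that ends it. Bub1, a checkpoint kinase, read 3340, 2715 and 4750 on the DKO arrays and 4591, 3323 and 5094 on the WT arrays. DKO 3 lay between WT 1 and WT 3, and the difference was 0.030 (SE 0.55) with all 6 arrays and -0.48 (SE 0.32) without WT 2. Ttk, the kinase that starts checkpoint signalling, read 1980, 1429 and 2190 against 1912, 728 and 2104, with differences of 0.67 (SE 0.73) and -0.14 (SE 0.29). Only DKO 2 and WT 2 stood below the rest. Cdc20, the activator of the anaphase-promoting complex, read 10087, 7645 and 9512 against 9727, 42326 and 10602. WT 2 was the highest, and without it the arrays lay close, with differences of -0.54 (SE 0.38) and -0.19 (SE 0.21). The second brightest Cdc20 probe set had WT 2 lowest, at 4415, 3564 and 5842 against 5395, 2377 and 6027, with differences of 0.39 and -0.35. A dimmer one, at 671, 385 and 678 against 771, 2089 and 979, spanned 1.48 over the 5 arrays, with differences of -0.72 and -0.64. Ube2c, the ubiquitin-conjugating enzyme of the anaphase-promoting complex, read 6070, 6056 and 11369 against 10632, 322 and 12362. It had the lowest WT 2 value of the set relative to WT 1 and WT 3, by -6.08 on the log2 scale, and the largest difference with all 6 arrays, 1.39 (SE 1.57), which became -0.63 (SE 0.37) without WT 2. Bub1b, Bub3 and Mad2l1, which form the checkpoint complex with Cdc20, differed by -0.34, -0.22 and -0.41 without WT 2.

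Kinetochore and centromere genes had the lowest median of the 7 role groups without WT 2, -0.54. Ndc80, the microtubule-binding subunit of the outer kinetochore, read 537, 747 and 1334 on the DKO arrays and 1255, 338 and 1528 on the WT arrays. DKO 3 lay between WT 1 and WT 3, and the difference was 0.22 (SE 0.90) with all 6 arrays and -0.78 (SE 0.45) without WT 2. Spc25, another subunit of the Ndc80 complex, read 2883, 2449 and 4191 against 3837, 9299 and 4282, with differences of -0.47 (SE 0.40) and -0.41 (SE 0.32). Kif2c, the kinesin that takes apart microtubule ends at the centromere, read 1701, 1170 and 2400 against 2633, 6380 and 2528, with differences of -0.73 (SE 0.45) and -0.63 (SE 0.36). WT 2 read highest for both. The remaining Nuf2, of the same complex, Cenpa, the centromeric histone, Cenpe, a kinetochore motor, and Cenpf differed by -0.23, -0.54, -0.46 and -0.54 without WT 2.

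Genes of the midzone and of cytokinesis, which bundle the central spindle and place the cleavage furrow, had a median of -0.43 without WT 2. Kif4, a chromosome-bound kinesin that also sets the length of the midzone, read 891, 626 and 1236 on the DKO arrays and 1304, 419 and 1312 on the WT arrays. The difference was 0.29 (SE 0.79) with all 6 arrays and -0.57 (SE 0.36) without WT 2. Kif20a, the kinesin that carries the passenger complex to the midzone, read 1699, 1397 and 2404 against 2173, 346 and 2415, with differences of 0.85 (SE 1.01) and -0.37 (SE 0.33). DKO 3 and WT 3 were nearly equal. Kif23, the motor of centralspindlin, read 1688, 1326 and 2583 against 2543, 1679 and 2858, with differences of -0.044 (SE 0.61) and -0.60 (SE 0.36). Prc1, which bundles midzone microtubules, differed by -0.67 without WT 2 and spanned 1.56 over the 5 arrays. Racgap1, the partner of Kif23, Anln, an actin-binding scaffold of the furrow, and Ect2 differed by -0.43, -0.30 and -0.25.

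On WT 2 probe sets of the same gene did not read alike. After centring, WT 2 was the lowest of the 6 arrays for 31 of 37 genes (58.4% of all genes) and the highest for 4, Cdca8, Kif2c, Spc25 and Cdc20. On the deposited scale it was the lowest for 25 and the highest for 7. The median of WT 2 minus the mean of WT 1 and WT 3 was -2.11 over the members, from -6.08 to 1.07. Among the 22 genes with more than 1 tested probe set, the probe sets of 11 genes disagreed in sign between genotypes with all 6 arrays, namely Top2a, Ccna2, Tpx2, Cdca8, Bub1, Bub1b, Bub3, Cdc20, Cenpe, Kif2c and Kif23, and 5 did without WT 2. Cdca8 had 3 tested probe sets whose WT 2 value was 0.94, -0.34 and -4.72 relative to WT 1 and WT 3, and their differences between genotypes were -0.59, -0.21 and 1.24 with all 6 arrays and -0.27, -0.33 and -0.33 without WT 2. Bub1b had -0.41, 0.70 and -4.55, with differences of -0.21, -0.11 and 1.31, and -0.34, 0.12 and -0.20 without WT 2. The 3' to 5' ratios of the control probe sets on WT 2 are given above, and their part in these values was not tested.

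**Figure D4:**
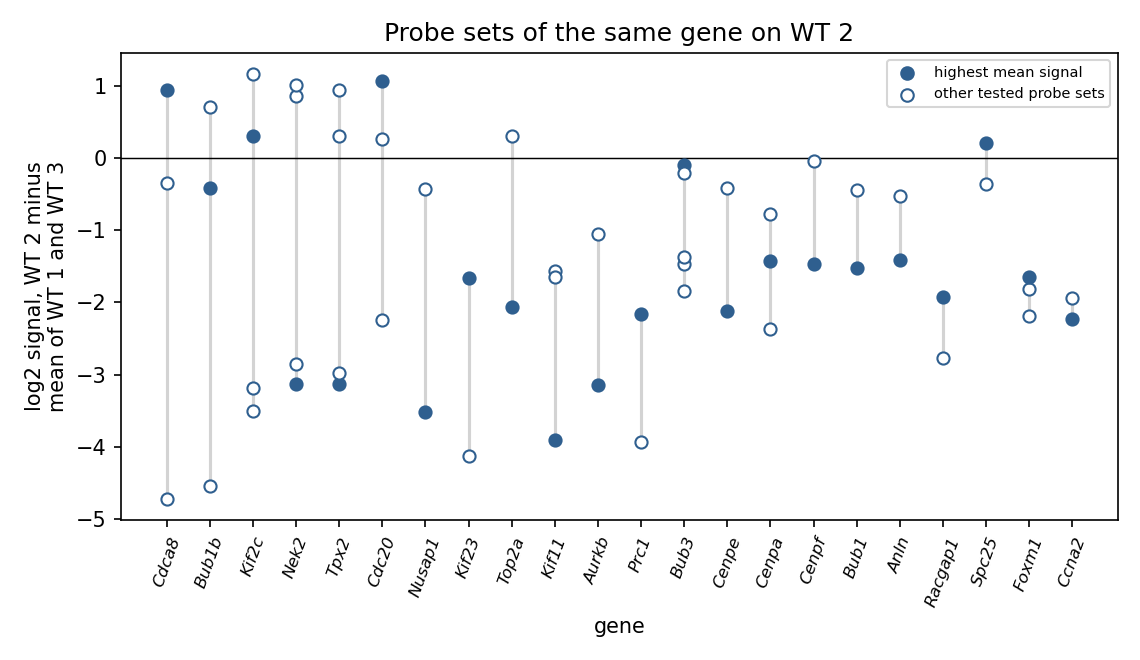
Centred log2 signal of WT 2 minus the mean of WT 1 and WT 3 for each tested probe set of the 22 genes with more than 1, filled for the brightest probe set of the gene and open for the others. Probe sets of Cdca8 span 0.94 to -4.72 and those of Bub1b 0.70 to -4.55.

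Other genes of cell division, on lists chosen with earlier results of these data known, were mostly lower without WT 2 too, and none passed limma's test with all 6 arrays or without WT 2. Without WT 2, 31 of 32 tested other kinetochore and centromere genes were lower (median -0.39), as were 25 of 27 other mitotic kinesins and spindle genes (-0.39), 7 of 7 centriole genes (-0.31), 11 of 13 regulators of mitotic entry (-0.27), 12 of 15 genes of the anaphase-promoting complex and mitotic exit (-0.24), 16 of 19 condensin, cohesin and separase genes (-0.23) and 29 of 34 DNA replication genes (-0.19). Of 14 cell cycle inhibitors and quiescence genes 8 were lower (-0.15). With all 6 arrays the medians of the 8 lists ran from 0.087 to 0.43, where that of all genes was 0.30. Without WT 2 and DKO 3, limma called on the lower side 10 of 37 members by their representative probe set, 2 of the 32 kinetochore and 3 of the 27 kinesin and spindle genes, 1 each of the replication, anaphase-promoting complex, mitotic entry and inhibitor lists, and 0 of the condensin and centriole lists, against 279 of 12627 genes in all. On the higher side it called 1 inhibitor, no member and none of the other 7 lists, against 407 genes in all. DKO 3, left out here, was the DKO array on which the members read highest, and no label sets it apart. These counts therefore describe only the arrays that were kept and do not rank the lists between genotypes.

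**Figure D5:**
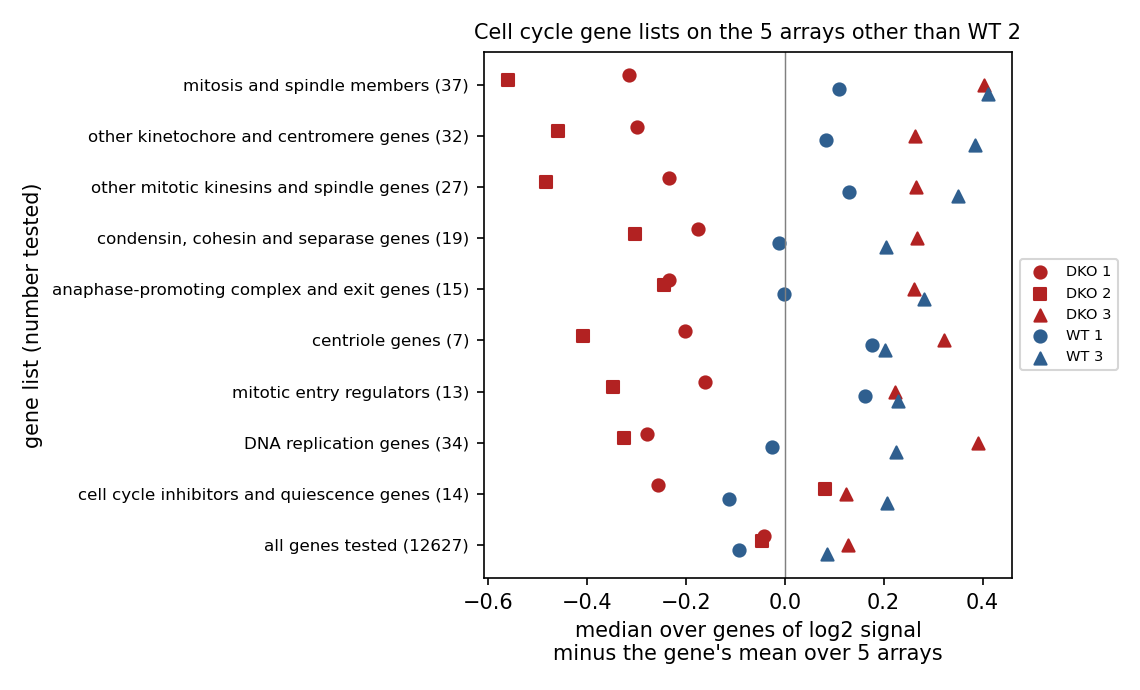
Median over each gene list of the centred log2 signal minus the gene's mean over the 5 arrays other than WT 2, with 1 mark per array (DKO in red, WT in blue). DKO 1 and DKO 2 lie left of 0 and DKO 3 and WT 3 right of 0 for the mitosis and spindle members and the 7 other lists of mitosis and replication genes, and the medians of all genes lie between -0.093 and 0.13.

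Single genes of these lists did not all follow the members. Pttg1, which encodes securin, the inhibitor of separase, read 6665, 5362 and 6564 on the DKO arrays and 3611, 16636 and 3662 on the WT arrays. Its 3 DKO arrays lay above WT 1 and WT 3, a difference of 0.74 (SE 0.21) without WT 2 with a limma adjusted p of 0.948, and below WT 2 on the deposited scale. Cit, the citron kinase of the cleavage furrow, read 851, 470 and 724 against 1547, 2909 and 1155, with no overlap, and differed by -1.06 (SE 0.43) with all 6 arrays and -1.01 (SE 0.32) without WT 2. Cdc25a, the phosphatase that activates cyclin-dependent kinases, read 1111, 1030 and 1402 against 2318, 4327 and 1749, again with no overlap of the signals, and differed by -0.83 (SE 0.40) and -0.79 (SE 0.27). Limma's adjusted p was 0.822 for both with all 6 arrays. Cdkn1a, which encodes the inhibitor p21, read 2991, 2922 and 1895 against 1198, 1413 and 2036, with differences of 1.06 (SE 0.51) and 0.68 (SE 0.32), and DKO 3 lay below WT 3.

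The other genes named from these lists for the smallest p without WT 2 are given by that difference. They were Ska2 (-0.68) and Cenpk (-0.53) of the kinetochore, Kif20b (-0.74), the condensin subunit Ncapg2 (-0.34), Anapc11 (-0.62) and Anapc13 (-0.41) of the anaphase-promoting complex, Plk4 (-0.46) and the dim Cep135 (-1.07) of the centriole, Lin54 (-0.55) of the DREAM complex, Orc1 (-0.57) and Orc6 (-0.43) of the origin recognition complex and Ccng2 (-0.48), a cyclin of resting cells. Each had a limma adjusted p of 0.948 in that fit. Anapc11 had the pattern of Nek2, at 513, 533 and 1271 on the DKO arrays and 1067, 657 and 1091 on the WT arrays.

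Granulocyte markers set DKO 3 clearly apart from the other DKO arrays, and the other marker lists did so to differing degrees. All 11 tested of 12 granulocyte markers, S100a8 and S100a9 among them, had lower mean signal in DKO with and without WT 2, and all 11 were higher on DKO 3 than on DKO 1 and DKO 2. Their summed signal was 583, 574 and 27643 on the DKO arrays and 75835, 178988 and 19172 on the WT arrays. Macrophage and monocyte markers, 9 tested of 10, summed to 25270, 17066 and 28482 against 49787, 104502 and 19976, and 9 of 9 were lower without WT 2. Pro-B and pre-B cell markers summed to 115425, 119277 and 71553 against 77293, 147815 and 78489, and 4 of 11 were lower. T and NK cell markers summed to 717, 1099 and 202 against 256, 753 and 257, and 2 of 7 were lower without WT 2. Plasma cell markers summed to 45020, 33361 and 19903 against 19536, 28251 and 14650, and 3 of 6 were lower without WT 2. Among them Igha read 19431, 14896 and 6180 against 30.7, 162 and 44.9, and Jchain 6321, 2655 and 1907 against 314, 550 and 82.3. All DKO arrays, DKO 3 included, lay above all WT arrays for these genes, but not for Sdc1, Prdm1, Xbp1 or Irf4. Igha was the only marker called, with a limma adjusted p of 0.043 with all 6 arrays and 0.0058 without WT 2. Erythroid markers, 3 tested of 8, summed to 239, 207 and 111 against 192, 496 and 151. No tested marker was listed at 0. DKO 3 was nearer to WT 3 than to DKO 1 or DKO 2 in every one of these sums except that of macrophage and monocyte markers, and the part of cell composition in the lower mitosis signals of DKO 1 and DKO 2 was not tested.

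The members with and without TTTGAA in the promoter window had like medians. Without WT 2, the median difference between genotypes was -0.42 over 24 genes with TTTGAA in the window and -0.46 over 8 genes without it, and the second range, -1.28 to -0.22, held most of the first, -0.78 to -0.11. Nek2, with no TTTGAA, had the lowest value of all, and Top2a, with 2 TTTGAA and 6 CCAAT, the highest of the first set. No test was made of this split.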

How the data were processed

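Biotin-labelled total RNA of 6 samples was read on 6 expression arrays. The deposited values are linear signal intensities for each probe set. Per the submitters' processing notes they come from MAS5, and the mean without the top and bottom 2% was 500 on each array. Of 45037 probe sets besides 64 controls, 34945 had 1 gene symbol, 932 several and 9160 none. Values were taken as log2(intensity + 16) and centred on the array median, since the medians differed by 1.13. Probe sets with a mean above percentile 40, 27022 in all, were fitted with group as the single term in limma 3.58.1 under R 4.3.3 (lmFit and eBayes with trend, two-sided), with Benjamini-Hochberg adjustment over all of them at 0.05. The number of arrays limits the precision. The genome build behind the probe sets is not given in the sources used here.

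The members and the gene lists were chosen with earlier results of these data known. Signals on every array are given for the members of each role with the 2 smallest p in either fit, and for each further list the 2 genes with the smallest p without WT 2 are named. Secondary probe sets of Nek2, Top2a, Cdc20, Cdca8 and Bub1b, and the values of Ect2, Anapc11, Igha and Jchain, were chosen after their values were seen. The fit was tested on simulated data with log2 changes of 1 or more. Nearly all differences of the members were smaller, so that test does not show how well they would be recovered. The alternatives were quantile normalization, other centring, pseudocounts of 1 and 64, no filter or one at percentile 60, variances without trend or robust, array weights, arrays left out, the replicate number as a block, and other choices of probe set per gene. Promoters came from RefSeq on GRCm38.p6. Tables and figures were made with Python 3.11.15, pandas 2.3.3 and matplotlib 3.10.9.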

Additional observations from a re-analysis of the deposited data

How the results depend on the processing

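Over the whole table limma called 2 probe sets with the main setting, with no filter and with variances without trend, and 3 with a pseudocount of 64. It called 0 with quantile normalization, with centring over the tested probe sets, with no centring, with a pseudocount of 1 and with the replicate block. It called 1 with the filter at percentile 60 and with robust variances, and 922 with array weights. Without WT 2 it called 5 under quantile normalization and under no centring. With 1 or 2 arrays left out it called 0 to 1099. Of the member probe sets, 74 in the main setting, it called 4 with array weights and 13 without WT 2 and DKO 3. It called 0 of them in the other settings that kept at least 2 arrays per genotype. The members' median was 0.29 in the main setting and -0.71 to 0.76 with arrays left out. The number of the 37 genes with higher signal in DKO, 26 in the main setting, was 14 with quantile normalization, 17 with centring over the tested probe sets, 16 with no centring, 0 with array weights, 0 and 1 without WT 2 under quantile normalization and no centring, and 0 to 31 with arrays left out. With pseudocounts of 1 and 64 that number was 30 and 24. Signal over background limits the dim probe sets, but the pseudocount moved bright members too. Mki67 differed by 0.35 with a pseudocount of 1 and by 0.19 with 64. The members' median was 0.35 and 0.18 in these 2 settings.

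The main fit did not pair samples by replicate number. The deviations of same-numbered arrays correlated at -0.15, -0.0019 and 0.33, and those of differently numbered arrays at -0.39 to 0.32. With 3 arrays per genotype, WT 2 among them, these values cannot decide whether same-numbered samples belong together. With the replicate block limma called 0 probe sets over the table and 0 of the members, the members' median was 0.29, and no named gene changed sign.

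Of 39 named genes followed through the settings, those that changed sign are given with their log2 difference, DKO minus WT, and the cause was not tested. Under quantile normalization they were Melk (-0.025), Birc5 (-0.045), Bub1 (-0.35), Ndc80 (-0.20), Kif4 (-0.16), Ncapg2 (-0.17), Kif20b (-0.45) and Orc1 (-0.21). Under centring over the tested probe sets they were Mki67 (-0.00026), Bub1 (-0.26), Ndc80 (-0.077), Kif4 (-0.0024), Ncapg2 (-0.11), Kif20b (-0.25) and Orc1 (-0.18). With no centring they were Mki67 (-0.019), Birc5 (-0.012), Bub1 (-0.28), Ndc80 (-0.10), Kif4 (-0.021), Ncapg2 (-0.13), Kif20b (-0.27) and Orc1 (-0.20). A pseudocount of 1 turned Kif23 (0.015), and one of 64 turned Bub1 (-0.072) and Kif20b (-0.058). With array weights they were Mki67 (-0.35), Top2a (-0.19), Ccnb2 (-0.52), Cdk1 (-0.66), Foxm1 (-0.13), Melk (-0.32), Plk1 (-0.67), Nusap1 (-0.53), Kif11 (-0.49), Aurkb (-0.30), Birc5 (-0.64), Bub1 (-0.66), Ttk (-0.28), Ube2c (-0.75), Ndc80 (-0.87), Kif4 (-0.83), Kif20a (-0.52), Ncapg2 (-0.46), Kif20b (-0.96) and Orc1 (-0.82). Without WT 2 under quantile normalization they were Mki67 (-0.19), Top2a (-0.092), Ccnb2 (-0.35), Cdk1 (-0.51), Foxm1 (-0.0011), Melk (-0.20), Plk1 (-0.43), Nusap1 (-0.45), Kif11 (-0.35), Aurkb (-0.18), Birc5 (-0.43), Bub1 (-0.48), Ttk (-0.12), Ube2c (-0.64), Ndc80 (-0.77), Kif4 (-0.57), Kif20a (-0.35), Ncapg2 (-0.33), Kif20b (-0.72) and Orc1 (-0.58). Without WT 2 under no centring they were Mki67 (-0.19), Top2a (-0.10), Ccnb2 (-0.35), Cdk1 (-0.51), Melk (-0.20), Plk1 (-0.43), Nusap1 (-0.44), Kif11 (-0.34), Aurkb (-0.18), Birc5 (-0.44), Bub1 (-0.46), Ttk (-0.13), Ube2c (-0.62), Ndc80 (-0.76), Kif4 (-0.56), Kif20a (-0.36), Ncapg2 (-0.32), Kif20b (-0.72) and Orc1 (-0.55). The mean over the tested probe sets of a gene turned Top2a (-0.028), Cdca8 (0.15), Bub1 (-0.18), Kif23 (0.13), Kif20b (-0.20) and Orc1 (-0.27).

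With 1 or 2 arrays left out, 25 of the 39 changed sign in at least 1 case, over ranges of Mki67 -0.33 to 0.55, Top2a -0.29 to 0.96, Ccnb2 -0.71 to 1.03, Cdk1 -0.88 to 1.34, Foxm1 -0.14 to 0.84, Melk -0.48 to 0.90, Plk1 -0.72 to 1.70, Nek2 -1.88 to 0.36, Nusap1 -0.70 to 1.37, Kif11 -0.58 to 1.63, Aurkb -0.38 to 1.44, Birc5 -0.80 to 0.76, Bub1 -0.78 to 0.37, Ttk -0.35 to 1.15, Ube2c -1.01 to 2.50, Ndc80 -1.21 to 0.83, Kif4 -0.89 to 0.77, Kif20a -0.66 to 1.54, Kif23 -0.94 to 0.32, Ska2 -0.85 to 0.0066, Ncapg2 -0.50 to 0.45, Anapc11 -1.12 to 0.28, Kif20b -1.05 to 0.45, Orc6 -0.68 to 0.0085, Orc1 -1.01 to 0.50. Leaving out WT 2 alone turned 20 of the 39, DKO 3 alone 6 (Birc5, Bub1, Ndc80, Kif4, Kif20b and Orc1), WT 3 alone 5 (Nek2, Kif23, Anapc11, Ska2 and Orc6), and each of DKO 1, DKO 2 and WT 1 alone 3 (Nek2, Kif23 and Anapc11).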
